A study of Mus musculus with 11 samples.

Results

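The cerebral cortex of mice that had lost Prkci in Ng2-Cre cells was compared directly with that of mice that had lost Prkcz in the same kind of cell. The comparison takes 7 of the 11 libraries of the series: 4 labelled Ng2 Cre+ Prkci f/f (Prkci cKO) and 3 labelled Ng2-Cre+ Prkcz f/f (Prkcz cKO). The other 4 libraries are controls whose labels name no Cre; replicates 1 and 2 are Pkcz f/+ and replicates 3 and 4 are Pkcz f/f. Controls did not enter the test and are given only as reference levels. Every mouse was untreated and was sampled at postnatal day 30, and total RNA from punches of cortex was sequenced in bulk, with replicates that the series calls biological. The deposited table holds 16228 genes, and 14330 of them reached a value of 1 in 3 or more of the 11 libraries and were tested.

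Prkci and Prkcz encode the atypical protein kinases C, which differ from other protein kinases C in needing neither calcium nor diacylglycerol, and which act with the scaffold proteins PAR3 and PAR6 to give cells their polarity. NG2, the product of Cspg4, is a surface proteoglycan of oligodendrocyte precursors, the cells that mature into the myelin-forming oligodendrocytes of the brain, and also of pericytes and smooth muscle cells on blood vessels. A Cre driven by its regulatory sequence can therefore recombine a floxed gene in precursors and all their progeny as well as in cells of the vessel wall. Both groups carry this Cre. Each kinase was deleted in its own line and no control of the Prkci line was among the samples used here, so the kinase and the genetic background of the line cannot be told apart. In bulk tissue, fewer cells of a type and less RNA per cell cannot be told apart either, and in which cells Cre acted was not tested.

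Depth read from the steps between low values was 22.5 to 28.2 M reads in Prkci cKO and 14.8 to 24.7 M reads in Prkcz cKO, with replicate 3 of Prkcz cKO the lowest of the 7. Replicates of a group correlated at 0.992 to 0.996 on the log scale over genes. Markers of cortical glutamatergic neurons were high in both groups (Slc17a7, the vesicular glutamate transporter, at 2118 to 2224 in Prkci cKO and 2073 to 2179 in Prkcz cKO), whereas the cerebellar marker Cbln3 was at most 1.6. Markers of striatal neurons, which lie beneath the cortex, differed between the groups and stood apart in 1 library: the summed level of 27 striatal genes was 965 to 1490 in Prkci cKO, 1527 and 1558 in Prkcz cKO replicates 1 and 2, and 2966 in Prkcz cKO replicate 3. The number of calls and some list medians are also given without that library.

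Few genes passed the test between the knockouts after adjustment, although 2299 of 14330 had an unadjusted limma p under 0.05. With limma on log2(value + 0.5), 55 of 14330 genes passed an adjusted p of 0.05, a share of 0.384%; 38 were higher in Prkci cKO (0.265% of genes tested) and 17 were lower (0.119%). In all 55 the values of the groups did not overlap. Over all genes, 7.36% had values that did not overlap in the higher direction and 6.43% in the lower direction, and the median difference was -0.01 on the log2 scale. Of the 38 higher calls, 18 belonged to 5 lists of vascular genes with 143 tested members. Of the 17 lower calls, 7 lay in 1 run on chromosome 2, 9 lay within 20 Mb of Prkcz on chromosome 4, and the other was Prkci. The lists were chosen with earlier results of these data known, and the run was found after the calls were seen. These counts therefore describe the calls and do not test if the 2 directions differ in kind. The number of calls depended on single libraries: it was 21, 18 and 30 without Prkci cKO replicates 1, 2 and 4, and 83 and 31 without Prkcz cKO replicates 1 and 2. Without Prkcz cKO replicate 3 it was 45.

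Prkci itself, on chromosome 3 at 30995747 to 31052959 of GRCm38, checks the labels. Its normalised value was 65.0, 68.2, 68.0 and 66.6 in the 4 Prkci cKO libraries and 91.5, 84.4 and 82.4 in the 3 Prkcz cKO libraries. Every Prkci cKO library lay below every Prkcz cKO library, and also below the controls, which ranged from 85.3 to 90.7. Means were 67.0 ± 1.47 (SD, n = 4) and 86.1 ± 4.79 (SD, n = 3). The log2 difference was -0.36 (SE 0.052, 95% interval -0.47 to -0.24, limma adjusted p = 0.0147), a level lower by 22.0%. The call was kept in 3 of the 7 analyses that each left out 1 library. Values are for whole cortex and whole genes, so cells without Cre and exons outside the deleted part add to them.

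Prkcz, on chromosome 4 at 155260129 to 155361361, did not pass the test. It was 324, 307, 313 and 314 in Prkci cKO and 279, 262 and 292 in Prkcz cKO, so that all Prkcz cKO libraries were below all Prkci cKO libraries. The log2 difference was 0.18 (SE 0.049, 95% interval 0.07 to 0.29, limma adjusted p = 0.186). Control libraries ranged from 298 to 347, above every Prkcz cKO library and overlapping Prkci cKO. In brain, an internal promoter of Prkcz also makes a short form without the regulatory domain, PKM-zeta, which a value for the whole gene does not separate.

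None of the partners of the kinases was called. Among 26 tested genes of the polarity complex and its regulators, Prkci was the only call. The largest difference on that list was that of Crb1, 0.66 on the log2 scale, which was not called. Scrib, a scaffold of the basolateral domain, had a log2 difference of 0.27 (limma adjusted p = 0.234), and Pard6b, a PAR6 subunit that binds the kinases directly, of -0.22 (limma adjusted p = 0.293). None of 11 tested genes of the other protein kinases C passed. Prkch, the eta isoform, had the smallest adjusted p there, 0.204, with values of 3.73 to 5.43 in Prkci cKO and 5.79 to 10.8 in Prkcz cKO. Its highest value was that of Prkcz cKO replicate 3, the library with the highest striatal level.

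Prkci cKO cortex had higher levels of blood vessel genes than Prkcz cKO cortex. Of 31 endothelial identity genes, 10 were called higher and 0 lower, all 31 differences were positive, and the median was 0.47 on the log2 scale, beside -0.01 over all genes. The values of the groups did not overlap in 24 of the 31, with Prkci cKO higher. Over all genes, 7.36% did not overlap in that direction and 0.265% were called higher. The list and its members were chosen with earlier results of these data known. The summed level of the 31 genes was 590 to 638 in Prkci cKO and 434 to 460 in Prkcz cKO, with controls between them at 512 to 570. The called members include the 3 receptors for vascular endothelial growth factors (Kdr, Flt1 and Flt4), the angiopoietin co-receptor gene Tie1, the BMP and TGF-beta co-receptor gene Eng, and Vwf, which encodes the platelet-binding protein that endothelium stores and secretes. Flt4, Tie1, Ptprb and Mmrn2 fall outside the rule for naming genes and were chosen after their values were seen.

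**Figure D1:**
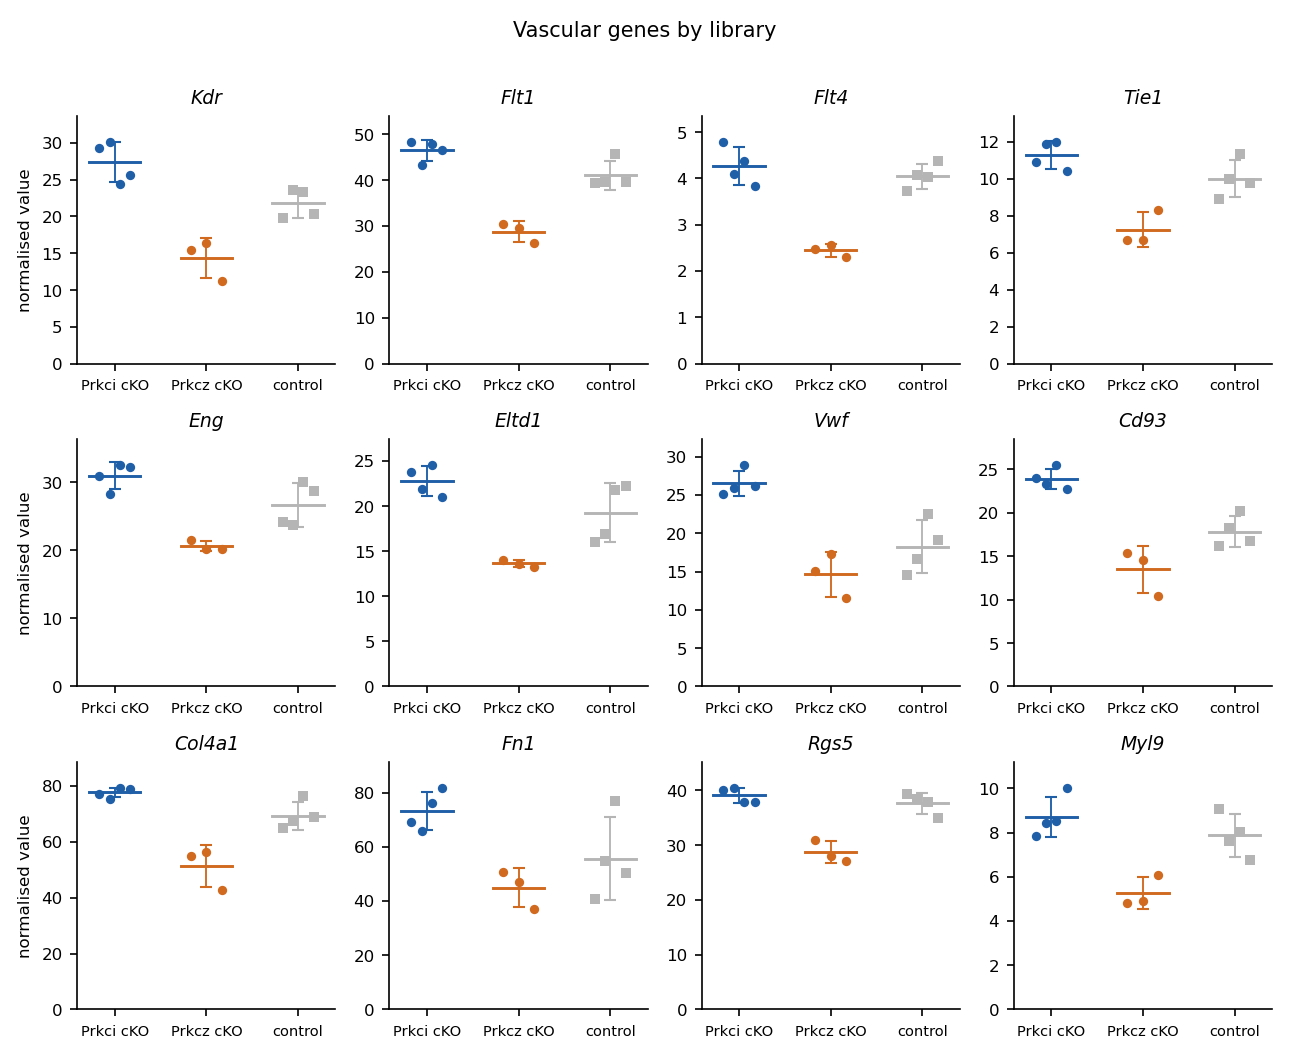
Normalised value (vertical axis, from 0) of 12 vascular genes in each library of Prkci cKO (blue), Prkcz cKO (orange) and control (grey); points are libraries, the horizontal line is the mean and the bar is the SD. In all 12 panels the Prkci cKO points lie above the Prkcz cKO points, and Kdr at 24.4 to 30.1 against 11.2 to 16.3 shows the widest separation by fold.

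Kdr encodes VEGFR2, the receptor through which VEGF-A drives endothelial growth, and lies on chromosome 5 at 75932827 to 75978458. It was 29.3, 30.1, 24.4 and 25.7 in Prkci cKO and 15.5, 16.3 and 11.2 in Prkcz cKO. The groups lay on either side of the controls, which ranged from 19.8 to 23.7. The means were 27.4 ± 2.73 (SD, n = 4) and 14.3 ± 2.72 (SD, n = 3). Kdr differed by 0.92 in log2 (SE 0.123, 95% interval 0.65 to 1.19, limma adjusted p = 0.0113).

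Flt1 encodes VEGFR1, which binds VEGF-A tightly and limits signalling through VEGFR2, and lies on the same chromosome at 147561604 to 147726011. Its values were 48.2, 43.2, 47.8 and 46.6 in Prkci cKO, against 30.5, 29.5 and 26.3 in Prkcz cKO. All Prkcz cKO libraries were below the controls (39.3 to 45.8), whereas the lowest Prkci cKO library lay within the control range. With means of 46.5 ± 2.29 (SD, n = 4) and 28.8 ± 2.21 (SD, n = 3), its log2 difference was 0.68 (SE 0.068, limma adjusted p = 0.00247), and it passed in all 19 alternative analyses.

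Because Kdr and Flt1 moved together, the bases just before their transcription start sites are shown from RefSeq, as the minus strand of GRCm38.p6. Flt1 is shown at chr5:147726012-147726261 and Kdr at chr5:75978456-75978705, both ending 1 base before the start site. Capitals mark GGAA or its complement TTCC, the core letters bound by ETS factors, a family with major members in endothelium.

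Flt1: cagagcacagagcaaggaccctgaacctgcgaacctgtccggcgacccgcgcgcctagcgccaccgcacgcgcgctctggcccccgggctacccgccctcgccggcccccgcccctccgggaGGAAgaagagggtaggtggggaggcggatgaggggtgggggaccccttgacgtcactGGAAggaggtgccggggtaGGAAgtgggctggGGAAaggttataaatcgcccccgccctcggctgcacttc
Kdr: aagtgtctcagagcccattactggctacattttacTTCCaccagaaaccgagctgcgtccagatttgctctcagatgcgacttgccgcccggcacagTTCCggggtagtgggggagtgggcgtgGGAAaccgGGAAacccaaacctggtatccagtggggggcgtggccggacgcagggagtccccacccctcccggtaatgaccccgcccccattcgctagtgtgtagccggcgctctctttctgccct

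Each window of 250 bases held 4 matches. Of 32851 RefSeq windows of that length, 93.4% held at least 1, with a median of 3, so these letters do not set the pair apart.

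Eltd1 (now Adgrl4), an adhesion receptor of endothelium, was 23.8, 21.9, 24.5 and 21.0 in Prkci cKO and 14.1, 13.6 and 13.3 in Prkcz cKO. Its log2 difference was 0.72 (SE 0.073, limma adjusted p = 0.00281). Eng was 30.9, 28.3, 32.5 and 32.2 against 21.5, 20.3 and 20.2, a difference of 0.57 (SE 0.067, limma adjusted p = 0.00481). Both genes passed in all 19 alternative analyses, as Flt1 did, and in both the Prkcz cKO values fell in a narrow band below every control. Controls divided by label in both. For Eltd1, f/+ controls were at 16.01 and 16.87 and f/f controls at 21.82 and 22.27. For Eng, f/+ controls were at 24.15 and 23.8 and f/f controls at 30.04 and 28.79. The annotation of Eng overlaps that of Fpgs, and no source used here says if counting took strand into account.

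Vwf was 25.2, 25.9, 28.9 and 26.2 in Prkci cKO and 15.1, 17.3 and 11.5 in Prkcz cKO. Here all Prkci cKO libraries lay above the control range of 14.6 to 22.6, while Prkcz cKO replicates 1 and 2 lay inside it and replicate 3 below it. The f/+ controls were at 14.61 and 16.65 and the f/f controls at 22.55 and 19.14. Vwf differed by 0.85 in log2 (SE 0.116, limma adjusted p = 0.0121). Cd93, a lectin-like receptor of endothelium, was 22.8 to 25.5 against 10.4 to 15.4, with a difference of 0.82 (SE 0.117, limma adjusted p = 0.0141). Controls at 16.1 to 20.2 fell between the groups.

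Of the remaining endothelial calls, Ptprb, a phosphatase of the angiopoietin receptor, differed by 0.66, Flt4 (VEGFR3) by 0.69, Mmrn2, a secreted ligand of Cd93, by 0.63 and Tie1 by 0.61. Flt4 and Mmrn2 were low, at most 4.78 and 5.03 in any Prkci cKO library, so their folds are understated by the added 0.5. Pecam1 and Cdh5, which encode junction proteins used as defining markers of endothelium, were 19.9 to 24 and 17.8 to 21.8 in Prkci cKO against 16.4 to 19.1 and 13.2 to 16.4 in Prkcz cKO. Neither passed (limma adjusted p = 0.169 and 0.202), although the groups did not overlap in either gene.

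Vessel matrix genes moved in the same direction. Among 22 basement membrane genes, 3 were called higher and 0 lower, 21 differences were positive and the median was 0.32. Over all genes, 0.265% were called higher and 6949 of 14330 differences were positive. Without Prkcz cKO replicate 3 the median of the list was 0.27. Fn1, which encodes fibronectin, was 69.2, 65.7, 76.3 and 81.6 in Prkci cKO and 50.8, 47.0 and 37.0 in Prkcz cKO, and the difference in log2 was 0.71 (SE 0.106, limma adjusted p = 0.0185). Its control values spread from 40.9 to 76.7 and overlapped both groups. The adjusted p was 0.0918 with all 11 libraries in one fit.

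Col4a1 and Col4a2 encode the chains of the main collagen IV of vessel walls. Col4a1 was 77.1, 75.5, 79.2 and 78.9 in Prkci cKO and 55.0, 56.4 and 42.6 in Prkcz cKO (log2 difference 0.60, SE 0.087, limma adjusted p = 0.0142). Col4a2 was 73.7, 71.3, 67.5 and 75.6 against 54.5, 55.4 and 44.6 (0.49, SE 0.077, limma adjusted p = 0.0267). For both genes Prkcz cKO replicate 3 was the lowest library, and the other Prkcz cKO libraries were still below every Prkci cKO library.

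The pair shares a promoter and is transcribed in opposite directions on chromosome 8. In RefSeq the start site of Col4a1 on the minus strand is at 11312826 and that of Col4a2 on the plus strand at 11312805, so the first exons overlap by 22 bases. The minus strand at chr8:11312805-11313076 of GRCm38.p6 is shown, and capitals mark the bases that both first exons hold.

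Col4a1: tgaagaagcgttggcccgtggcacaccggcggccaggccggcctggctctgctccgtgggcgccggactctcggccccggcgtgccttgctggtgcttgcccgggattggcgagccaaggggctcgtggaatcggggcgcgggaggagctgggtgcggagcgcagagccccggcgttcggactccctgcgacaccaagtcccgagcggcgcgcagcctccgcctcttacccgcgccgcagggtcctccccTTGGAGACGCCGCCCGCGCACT

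Reads within the shared bases could be counted for either gene where strand was not used. The pair counts as 2 of the 38 higher calls but comes from 1 promoter region.

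Eln, which encodes elastin of arterial walls, was 14.6, 13.9, 14.8 and 20.9 in Prkci cKO and 8.42, 9.22 and 9.01 in Prkcz cKO (log2 difference 0.80, SE 0.127, limma adjusted p = 0.0267). Prkci cKO replicate 4 stood well above the other 3, and the call was kept in 2 of 7 leave-out analyses. Ltbp4, which helps lay down elastic fibres and was chosen after its values were seen, was 59.6 to 67.5 against 39.4 to 44.9 (0.54, SE 0.066, limma adjusted p = 0.00700). All Prkci cKO libraries of Ltbp4 were above, and all Prkcz cKO libraries below, the controls at 47.2 to 51.8.

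Mural cells cover the endothelium and are among the cells in which NG2 is made. Of 25 tested pericyte and smooth muscle genes, 2 were called higher and 0 lower, 23 differences were positive and the median was 0.26. The share called higher over all genes was 0.265%. Rgs5, a G protein regulator that marks pericytes, was 40.0, 40.4, 37.9 and 37.9 in Prkci cKO and 30.9, 28.0 and 27.1 in Prkcz cKO (log2 difference 0.44, SE 0.062, limma adjusted p = 0.0141). Myl9, a myosin light chain of smooth muscle, was 7.86 to 10.01 against 4.82 to 6.10 (0.68, SE 0.114, limma adjusted p = 0.0355), and was called in 1 of the 7 analyses that each left out 1 library. In both genes all Prkcz cKO libraries were below every control, and Prkci cKO overlapped the controls. Acta2, the smooth muscle actin, did not pass (7.11 to 11.5 against 4.24 to 5.35, limma adjusted p = 0.0687), nor did Notch3 (12.9 to 15.2 against 7.79 to 10.7, limma adjusted p = 0.0653).

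Genes of the blood-brain barrier gave 2 calls among 27, beside 0.265% of all genes called higher. On that list 26 differences were positive and the median was 0.26. Apcdd1, a Wnt inhibitor of barrier endothelium, was 31.6 to 37.9 in Prkci cKO and 23.7 to 25.8 in Prkcz cKO (log2 difference 0.45, SE 0.073, limma adjusted p = 0.0292). Abcb1a, the efflux pump P-glycoprotein, was 29.9 to 32.2 against 22.7 to 25.7 (0.36, SE 0.063, limma adjusted p = 0.0412), and was called in 1 of the 7 analyses that each left out 1 library. The tight junction gene Cldn5 did not pass (30.9 to 37.3 against 24.7 to 28.0, limma adjusted p = 0.119).

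Among 38 genes of vascular growth factor, Notch and BMP signalling, Cxcl12 was the call, beside 0.265% of all genes called higher. On that list 34 differences were positive and the median was 0.15. Cxcl12, a chemokine made by endothelium and mural cells, was 107, 94.6, 104 and 100 in Prkci cKO and 80.0, 65.5 and 70.9 in Prkcz cKO (log2 difference 0.49, SE 0.071, limma adjusted p = 0.0142). The groups lay above and below the controls at 86.4 to 92.9. Id1, a target of BMP signalling, had a difference of 0.60 (limma adjusted p = 0.0769), and the endothelial receptor gene Notch4 of 0.56 (limma adjusted p = 0.0839).

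The count of vascular calls was sensitive to the libraries. From 18 it went to 3 without Prkci cKO replicate 1, to 4 without replicate 2, to 9 without replicate 4 and to 9 without Prkcz cKO replicate 2; it was 13 without Prkci cKO replicate 3 or Prkcz cKO replicate 1, 16 without Prkcz cKO replicate 3, 6 with no trend in the variance and 19 with all 11 libraries in one fit. All of these calls were in the higher direction. In the 7 analyses that each left out 1 library, Fn1 and Apcdd1 were called in 3. Rgs5, Col4a1, Col4a2 and Cxcl12 were called in 4 of the 7, and Kdr, Vwf and Cd93 in 5. The median of the endothelial list moved less, between 0.41 and 0.56 over the analyses that each left out 1 library.

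Other cells that travel with vessels were measured for the same libraries. Fibroblast and meningeal genes gave 0 calls among 23, with a median of 0.30 and 22 positive differences. In 11 of the 23 the groups did not overlap, with Prkci cKO higher, beside 7.36% of all genes. Their summed level was 398 to 474 in Prkci cKO, 346 to 374 in Prkcz cKO and 242 to 481 in controls. Erythrocyte genes gave 0 calls among 8, with a median of 0.37, and Hba-a1, a globin gene, was 111 to 253 in Prkci cKO and 94.8 to 164 in Prkcz cKO, so the groups overlapped. Summed erythrocyte levels of 548 to 796 and 514 to 648 overlapped as well. Blood leukocyte genes gave 0 calls among 4 tested, with a median of -0.15. Perivascular macrophage genes gave 0 calls among 5 tested, with 5 positive differences and a median of 0.35. The summed level of that list was 23.6 to 30.9 in Prkci cKO, 19.6 to 21.3 in Prkcz cKO and 17.0 to 34.6 in controls. The part of vessel, meningeal or blood content of the punches in the vascular result was not tested.

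Outside the vascular lists, the filament genes Nes and Vim rose in Prkci cKO relative to Prkcz cKO. Nestin, the product of Nes, marks neural progenitors and is also made by brain endothelium and pericytes. Nes was 17.8, 13.8, 15.4 and 15.9 in Prkci cKO and 10, 7.55 and 7.79 in Prkcz cKO (log2 difference 0.86, SE 0.114, limma adjusted p = 0.0103). Controls of Nes, at 10.8 to 14.6, were above every Prkcz cKO library and overlapped Prkci cKO. Vim was 30.7, 29.4, 28.0 and 31.2 against 21.7, 22.2 and 21.5 (0.44, SE 0.060, limma adjusted p = 0.0121). Its controls, at 23.1 to 27.5, lay between the groups. Of the 7 analyses that each left out 1 library, Nes was called in 6 and Vim in 4. Vimentin is a filament of endothelium, fibroblasts and reactive astrocytes. Nes and Vim were the calls among 13 filament genes and, being on both lists, the calls among 23 reactive astrocyte genes. The share called higher over all genes was 0.265%.

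Astrocyte identity genes gave 0 calls among 26, with a median of 0.10 and summed levels of 9328 to 10431 in Prkci cKO and 7608 to 9038 in Prkcz cKO. The glutamate transporter gene Slc1a3 was 650 to 700 in Prkci cKO and 552 to 631 in Prkcz cKO (log2 difference 0.20, limma adjusted p = 0.202), and the water channel gene Aqp4 was 132 to 160 against 106 to 128 (0.26, limma adjusted p = 0.210). Among 23 microglial genes the call was Slc2a5, in the lower direction and on the chromosome of Prkcz, and is described with the genes of that stretch; the integrin gene Itgam had a difference of 0.39 (limma adjusted p = 0.156).

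**Figure D2:**
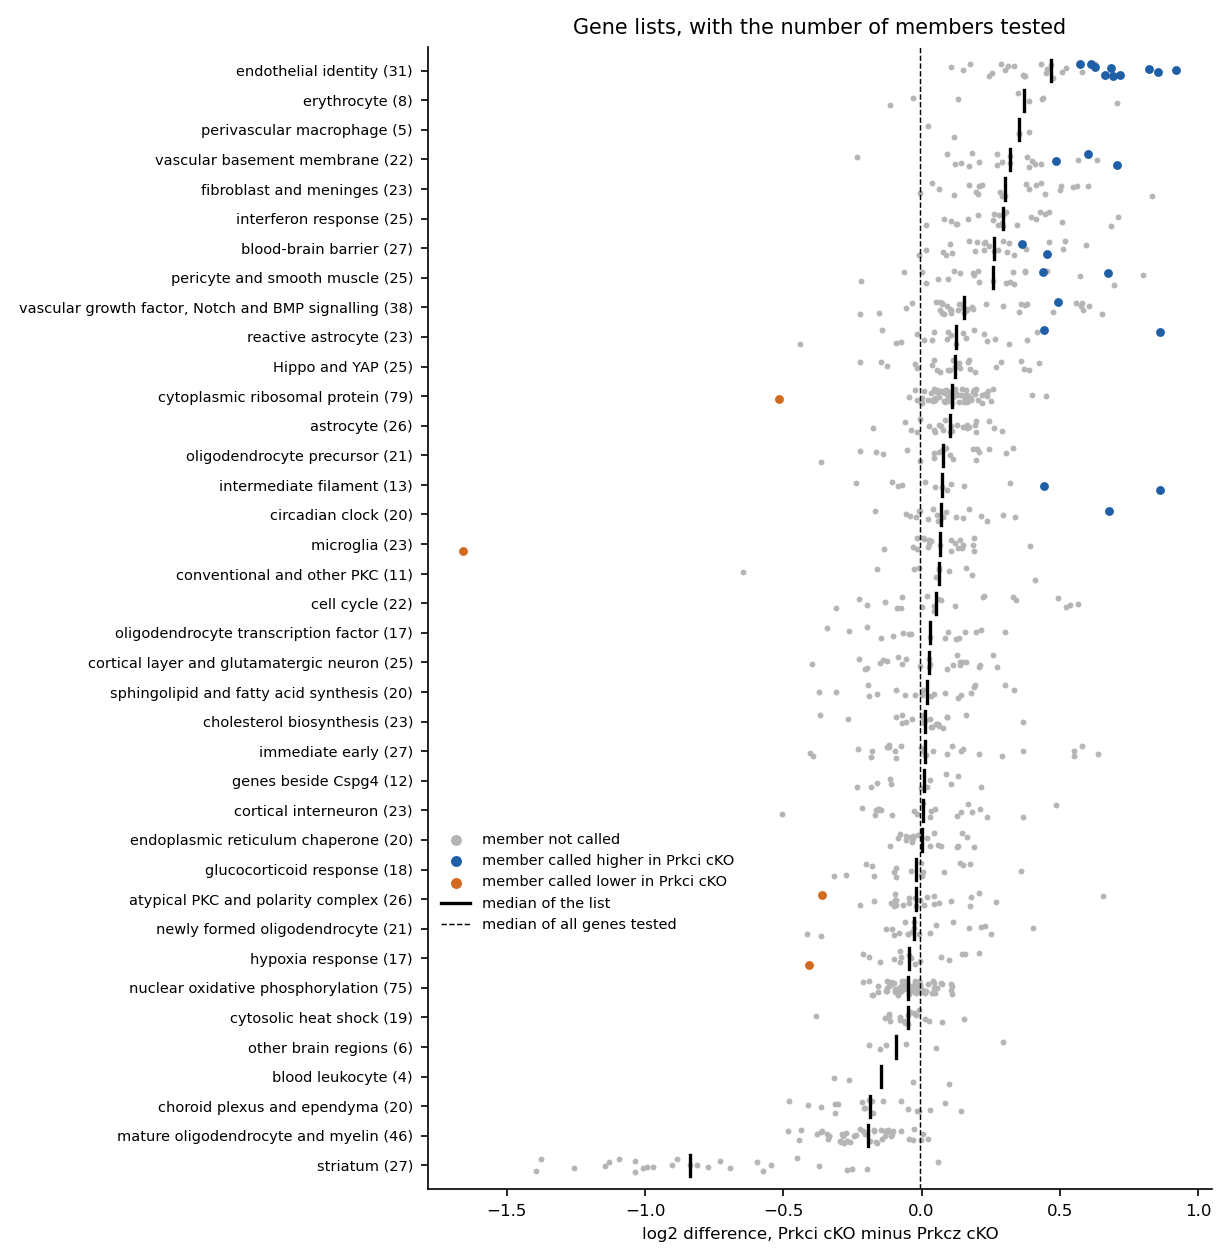
Log2 difference between Prkci cKO and Prkcz cKO (horizontal axis) for each tested member of 38 gene lists (rows, ordered by median; number of members in brackets). Blue and orange points are members called higher and lower, black bars are list medians and the dashed line is the median of all genes tested; endothelial identity is highest at 0.47 and striatum lowest at -0.84.

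Per2, a repressor of the circadian clock, was the call among 20 clock genes. It was 32.7, 31.0, 27.5 and 28.8 in Prkci cKO and 19.9, 18.8 and 17.0 in Prkcz cKO (log2 difference 0.68, SE 0.079, limma adjusted p = 0.00481), and it passed in all 19 alternative analyses. Controls ranged from 19.3 to 31.5 and overlapped both groups. Cry1, its partner repressor, had a difference of 0.34 (limma adjusted p = 0.0810) with values that did not overlap, and Cry2 one of 0.15 (limma adjusted p = 0.202). No source used here gives the time of day of sampling, and its part in the difference was not tested.

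The remaining named higher calls fall outside the lists and were chosen after their values were seen. Epas1, the hypoxia-inducible factor HIF-2 alpha that is strong in endothelium, differed by 0.38 (158 to 188 against 126 to 138). Myh9, non-muscle myosin heavy chain, differed by 0.52, and Iqgap1, a scaffold of Cdc42 and Rac1, by 0.43. Etv6, an ETS repressor, differed by 0.40, Mertk, a receptor for the uptake of dying cells, by 0.42, and Nkd1, a Wnt antagonist, by 0.40. Trib2, a pseudokinase, differed by 0.38 and Slfn5 by 0.57.

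Dynlt1b, a dynein light chain gene with near-identical copies beside it in the genome, differed by 0.58. Prkcz cKO (4.95 to 5.38) overlapped the controls (4.01 to 5.34), and Prkci cKO (6.92 to 8.65) lay above them. Across the 38 higher calls, Prkcz cKO was below every control in 26 and Prkci cKO was above every control in 13, and the control mean lay between the knockout means in 33. These positions describe 4 control libraries of the Prkcz line and were not tested here. The calls were chosen for a higher level in Prkci cKO than in Prkcz cKO, which itself favours such positions. Their share over all genes was not counted.

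The lower calls clustered on chromosomes. Within 20 Mb of Prkcz on distal chromosome 4, 10 of 221 tested genes were called (4.52%, beside 0.384% over all genes), 9 of them lower and 1 higher in Prkci cKO. Within 5 Mb the count was 5 of 78 (6.41%). Around Prkci on chromosome 3, none of 37 other tested genes within 5 Mb and none of 92 within 20 Mb was called. An unadjusted limma p under 0.05 was reached by 29.7% and 16.3% of these genes around Prkci, by 30.8% and 29.4% of the genes within 5 Mb and 20 Mb of Prkcz, and by 16% of all genes tested. The median difference within 20 Mb of Prkcz was 0.00, and 113 of the 221 differences were positive.

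**Figure D3:**
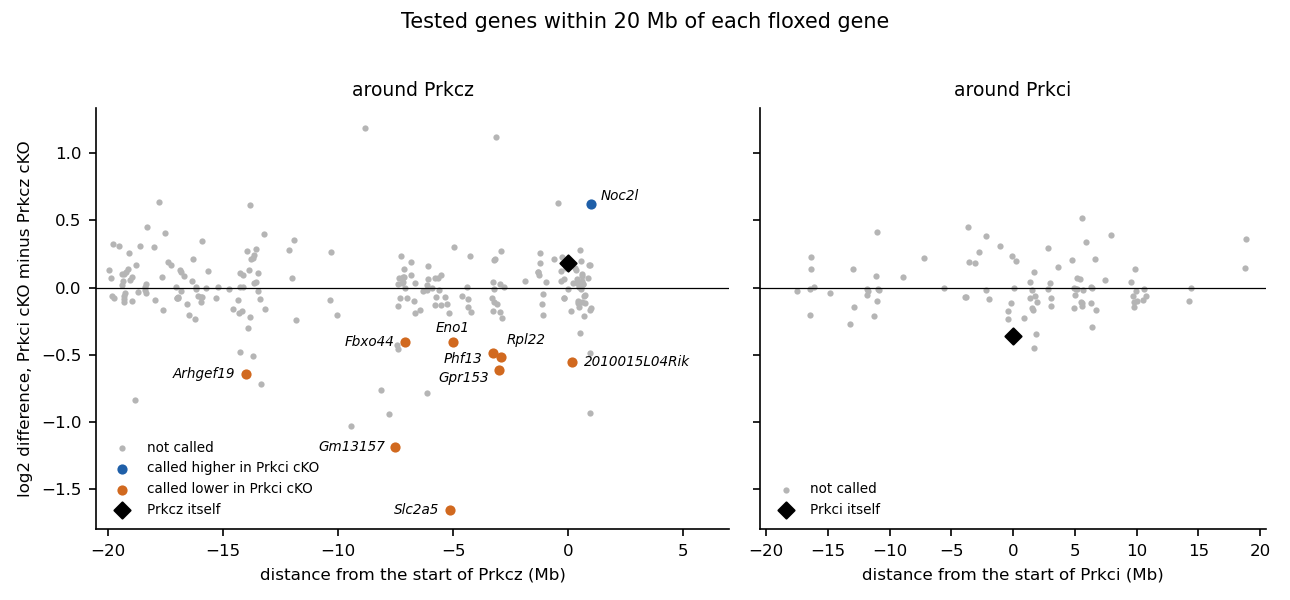
Log2 difference between Prkci cKO and Prkcz cKO (vertical axis) against distance in Mb from the start of Prkcz (left; the chromosome ends just right of 0) and of Prkci (right) for all tested genes within 20 Mb. Orange and blue points are genes called lower and higher, grey points were not called and black diamonds are the floxed genes; 10 genes were called around Prkcz and none around Prkci.

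Slc2a5, the fructose transporter gene that microglia express, had the largest difference of any call. On chromosome 4 at 150119283 to 150144169, it was 0.46, 0.58, 0.60 and 0.85 in Prkci cKO and 3.93, 2.91 and 2.37 in Prkcz cKO. Every Prkci cKO library was below every other library, and Prkcz cKO overlapped the controls at 2.66 to 3.34. The log2 difference was -1.66 (SE 0.192, 95% interval -2.08 to -1.23, limma adjusted p = 0.00481). The gene was called in all 18 alternatives that tested it, and a value as low as this one is understated as a fold by the added 0.5.

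Arhgef19, at 141239499 to 141257564, was 4.62, 5.02, 5.51 and 5.43 in Prkci cKO and 8.91, 8.12 and 7.92 in Prkcz cKO (log2 difference -0.64, SE 0.098, limma adjusted p = 0.0190). Controls were above both groups, at 9.69 to 13.9. The orphan receptor gene Gpr153, at 152274232 to 152285337, was 13.9 to 15.7 against 19.3 to 25.8 (-0.61, SE 0.097, limma adjusted p = 0.0249). Its controls, at 21.6 to 26.9, overlapped Prkcz cKO. Arhgef19 and Gpr153 were each called in 2 of 7 leave-out analyses.

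Eno1, the glycolytic enzyme enolase, at 150236721 to 150248879, was 467, 494, 486 and 478 in Prkci cKO and 694, 612 and 611 in Prkcz cKO (log2 difference -0.41, SE 0.056, limma adjusted p = 0.0129). Controls at 583 to 682 overlapped Prkcz cKO only. Eno1 was the call among 17 hypoxia response genes; Bnip3 at -0.15 and Egln3 at -0.21, also of that list, did not pass. Rpl22, a ribosomal protein gene, was 37.6 to 44.0 against 53.6 to 64.7 (-0.51, SE 0.076, limma adjusted p = 0.0162) and was the call among 79 genes of its list. Eno1 and Rpl22 both have near-identical copies elsewhere in the genome, so their counting is uncertain. Each was called in 4 of 7 leave-out analyses.

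Phf13, a chromatin reader, had a log2 difference of -0.49 and was called in 0 of the 7 analyses that each left out 1 library. Fbxo44, a ubiquitin ligase subunit chosen after its values were seen, was 44.1 to 47.3 in Prkci cKO and 56.8 to 64.6 in Prkcz cKO, a difference of -0.40 (SE 0.058, limma adjusted p = 0.0142). The other 2 lower calls of the stretch are unnamed gene models.

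Noc2l, a regulator of histone acetylation chosen after its values were seen, was the higher call of the stretch, at 156236010 to 156247616. It was 57.1, 57.7, 58.8 and 59.9 in Prkci cKO and 38.1, 36.7 and 38.5 in Prkcz cKO, without overlap. Controls divided by their label: the f/+ libraries were at 56.2 and 50.4, near Prkci cKO, and the f/f libraries at 35.3 and 36.9, near Prkcz cKO. The log2 difference was 0.62 (SE 0.049, limma adjusted p = 7.18e-04), and the adjusted p was 0.0560 with all 11 libraries in one fit. Noc2l overlaps the annotation of Samd11.

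A second run lay on chromosome 2 between 175741537 and 178034022, where 7 of 18 tested genes were called, all lower in Prkci cKO. Over all genes, 0.119% were called lower, and the bounds of the run were set by the calls themselves. The stretch is a tandem array of zinc-finger genes with near-identical copies, so the counting of each gene is uncertain, and 6 of the 7 are unnamed models. The named one, Etohi1 (Zfp971), was 6.52, 5.79, 6.35 and 5.78 in Prkci cKO and 11.9, 10.7 and 10.2 in Prkcz cKO (log2 difference -0.79, SE 0.092, limma adjusted p = 0.00481). As with Noc2l, controls divided by label, with f/+ at 11.3 and 13.4 and f/f at 6.45 and 6.70, but here it was f/f that lay near Prkci cKO. None of the 7 passed with all 11 libraries in one fit, where the spread of the controls enters, and Etohi1 then had an adjusted p of 0.129.

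**Figure D4:**
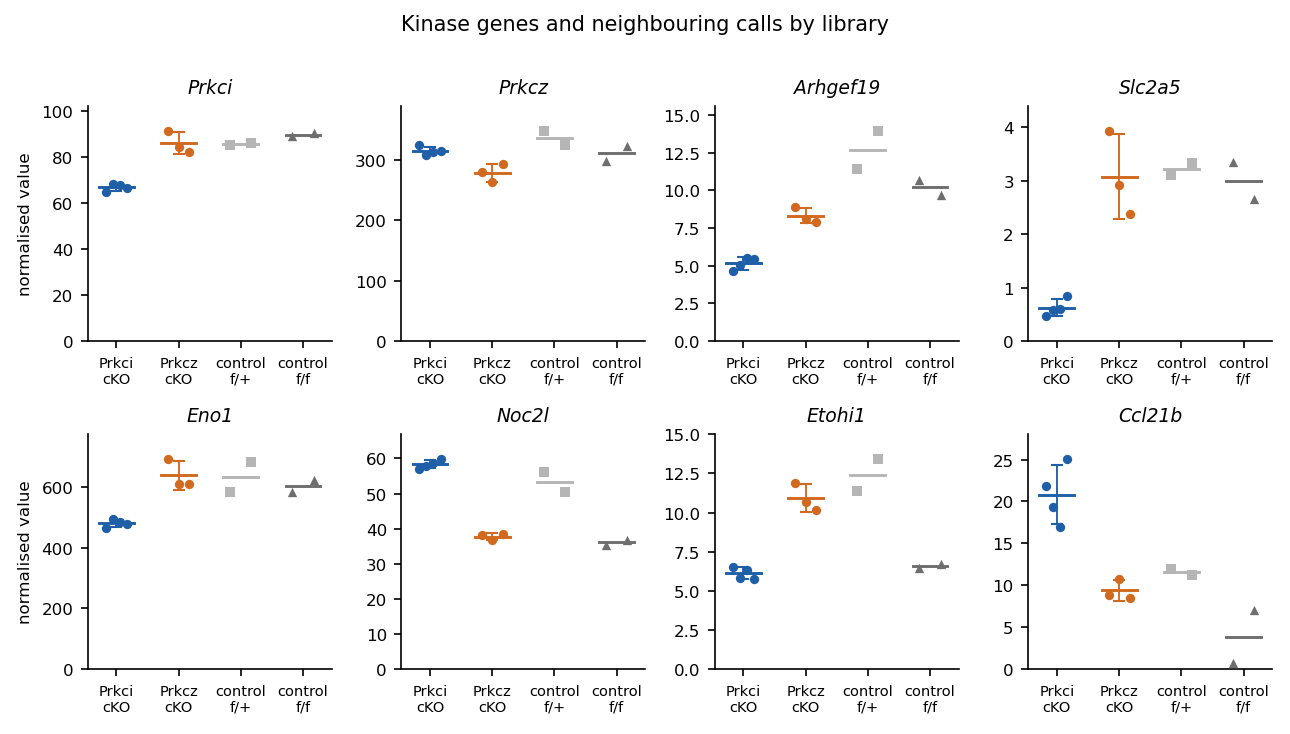
Normalised value (vertical axis, from 0) of the kinase genes, of Arhgef19, Slc2a5, Eno1 and Noc2l near Prkcz, of Etohi1 on chromosome 2 and of Ccl21b, in Prkci cKO (blue), Prkcz cKO (orange), f/+ controls (light squares) and f/f controls (dark triangles). Points are libraries, lines are means and bars are SD for the knockouts. Controls of the 2 labels lie apart for Noc2l, Etohi1 and Ccl21b, and also for Prkci and Arhgef19. How often controls lie apart by label over all genes was not counted.

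The largest higher differences also came from repeated genes. Ccl21b, a chemokine gene with near-identical copies on proximal chromosome 4, was 21.8, 19.4, 16.9 and 25.1 in Prkci cKO and 8.84, 10.8 and 8.53 in Prkcz cKO (log2 difference 1.10, SE 0.128, limma adjusted p = 0.00481). Its controls divided by label, with f/+ at 12 and 11.2 and f/f at 0.68 and 7.02. With all 11 libraries in one fit its adjusted p was 0.367. Of the 38 higher calls, 4 were unnamed models, 3 of which stood above Kdr in size. In all, 22 of the 55 calls lay in runs of neighbours whose starts were at most 5 Mb apart, 7 of them higher and 15 lower; the runs were found after the calls were seen.

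Both knockouts carry Ng2-Cre, and genes beside Cspg4 show how the libraries compare around the gene that drives it. Of 12 tested genes there, none was called, and the median difference was 0.01. An unadjusted limma p under 0.05 was reached by 4 of the 12, beside 16% of all genes. The groups did not overlap in 2 genes with Prkci cKO higher and in 2 with it lower. Over all genes these shares were 7.36% and 6.43%. Snupn, an importer of small nuclear ribonucleoproteins, was 36.4, 34.0, 36.7 and 34.6 in Prkci cKO and 35.3, 32.3 and 38.9 in Prkcz cKO, against 10.8 to 11.7 in controls. The difference between the knockouts was -0.00 on the log2 scale, with a 95% interval of -0.15 to 0.15. Imp3, a gene of ribosome assembly, was 20.7 to 23.2 and 24.4 to 24.8 against 13.2 to 15.7 in controls (interval of the difference between the knockouts -0.30 to -0.03, limma adjusted p = 0.266).

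Cspg4 itself was 21.9, 21.2, 23.2 and 24.8 in Prkci cKO and 22.4, 23.9 and 18.2 in Prkcz cKO, a log2 difference of 0.09 with a 95% interval of -0.12 to 0.30. Odf3l1, next to Cspg4, was 0.54 to 1.38 and 0.81 to 1.42, and at most 0.04 in controls. The other 8 genes had differences between -0.18 (Ube2q2) and 0.21 (Ptpn9), with adjusted p of at least 0.164.

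No gene of the oligodendrocyte lists passed the test between the knockouts. Of 46 mature oligodendrocyte and myelin genes, 0 were called, yet 44 differences were negative and the median was -0.20. Aspa, which breaks down acetylaspartate to supply acetate for myelin lipids, was 7.57, 7.78, 7.32 and 8.13 in Prkci cKO and 9.88, 10.2 and 11.8 in Prkcz cKO. The groups did not overlap, both were below the controls (12.6 to 18), and the log2 difference of -0.43 (SE 0.089) had a limma adjusted p of 0.0845.

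Cldn11, the tight junction protein of myelin, was 143, 142, 126 and 183 in Prkci cKO and 187, 169 and 216 in Prkcz cKO, so the ranges overlapped (log2 difference -0.36, limma adjusted p = 0.223). It lies on chromosome 3 at 31149920 to 31164324, beside Prkci. Tspan2, a tetraspanin of young oligodendrocytes, was 128 to 173 against 170 to 189 (-0.27, limma adjusted p = 0.223). The summed level of the 46 genes was 5021 to 7273 in Prkci cKO, wider than the 6541 to 7005 of Prkcz cKO, and all 7 libraries were below the controls at 8310 to 11415. Without Prkcz cKO replicate 3 the median of the list was -0.13.

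Earlier stages gave no calls either. The 21 oligodendrocyte precursor genes had a median of 0.08 and the 21 newly formed oligodendrocyte genes one of -0.03. Without Prkcz cKO replicate 3 these medians were 0.02 and -0.02. Ptprz1, a phosphatase of precursors, was 196 to 238 against 150 to 191 (log2 difference 0.33, limma adjusted p = 0.180), and Gpr17, a receptor of the transition to maturity, was 78.7 to 97.4 against 72.1 to 80.2 (0.17, limma adjusted p = 0.296). Gpr17 was at 129 to 137 in controls, above all 7 knockout libraries. Of 17 transcription factors of the lineage none was called, and the median was 0.03.

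Fatty acid, sphingolipid and sterol synthesis gave 0 calls among 20 and 23 genes, with medians of 0.02 and 0.01. Fasn, the fatty acid synthase, had a difference of 0.33 (293 to 328 against 209 to 271, limma adjusted p = 0.151). Elovl7, which extends long fatty acids in oligodendrocytes, had one of -0.37 (20.8 to 26.9 against 28.6 to 31.2, limma adjusted p = 0.132). In neither gene did the groups overlap, as held for 7.36% and 6.43% of all genes in the respective direction.

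**Figure D5:**
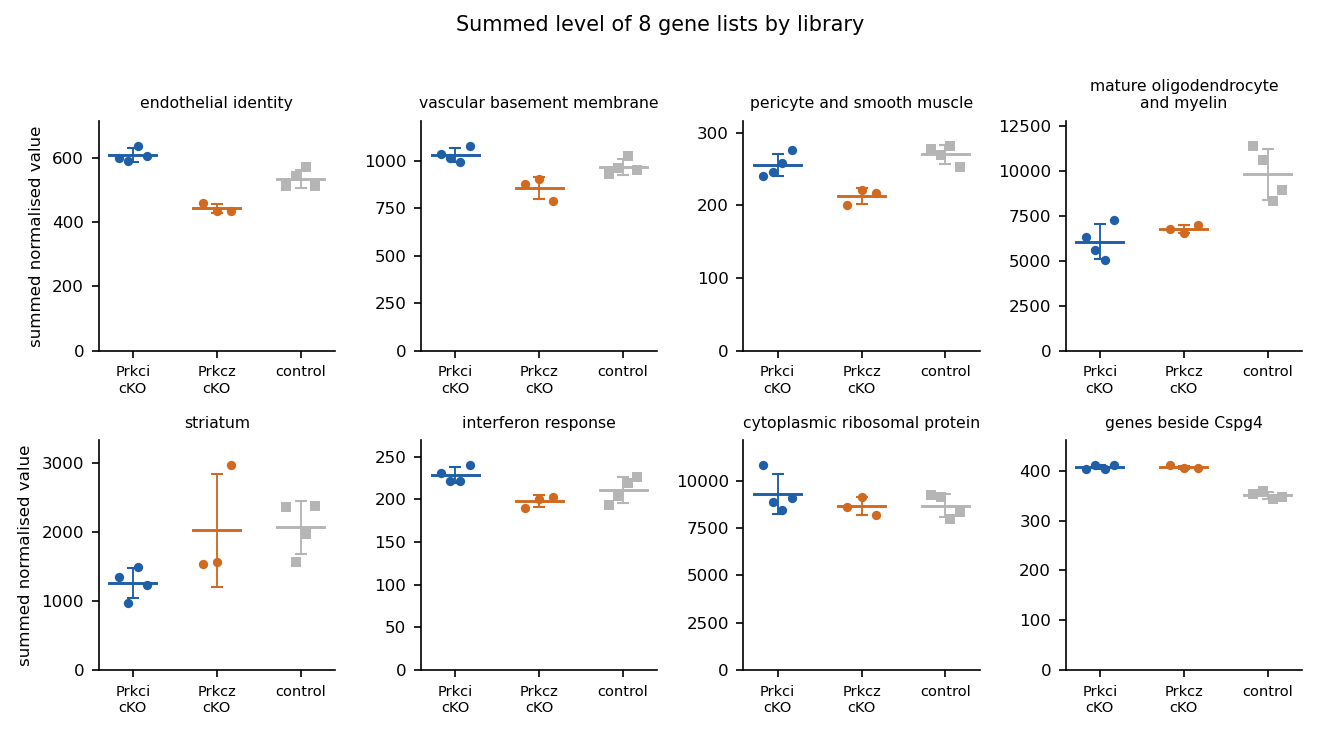
Summed normalised value (vertical axis, from 0) of the tested members of 8 gene lists in each library of Prkci cKO (blue), Prkcz cKO (orange) and control (grey); lines are means and bars are SD. Endothelial sums of 590 to 638 and 434 to 460 do not overlap, myelin sums of the knockouts do, and 1 Prkcz cKO library reaches 2966 for striatum.

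The striatal list had the lowest median, -0.84, with 26 of 27 differences negative and 0 calls. Penk, the enkephalin precursor gene, was 69.7, 34.9, 105 and 58.2 in Prkci cKO and 107, 114 and 273 in Prkcz cKO (log2 difference -1.26, SE 0.366, limma adjusted p = 0.205). Drd1a, a dopamine receptor gene, was 15.3 to 22.5 against 25.5, 31.9 and 58.9 (-0.90, limma adjusted p = 0.157). Without Prkcz cKO replicate 3 the median was -0.46. Whether the punches held different amounts of striatum was not tested.

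Neurons of the cortex gave no calls: the medians were 0.03 over 25 genes of layers and glutamatergic neurons and 0.01 over 23 interneuron genes. Reln, the secreted protein of layer 1 and of interneurons, had the smallest p among interneuron genes, with 94.1 to 108 against 53.9 to 83.5 (log2 difference 0.48, limma adjusted p = 0.163). Immediate early genes gave 0 calls among 27, with a median of 0.01. Egr1 was 260 to 282 in Prkci cKO and 254, 150 and 156 in Prkcz cKO (0.58, limma adjusted p = 0.155), so 1 Prkcz cKO library lay close to the other group.

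All 25 tested interferon response genes had positive differences, with a median of 0.30, and none was called. Trim30a, an inhibitor of inflammatory signalling, was 2.16 to 2.78 in Prkci cKO and 1.32 to 1.5 in Prkcz cKO (log2 difference 0.68, limma adjusted p = 0.0773). Parp14 was 3.70 to 5.71 against 2.03 to 3.08 (0.71, limma adjusted p = 0.134), and Ifitm3, which blocks the entry of viruses, 7.52 to 8.38 against 5.16 to 6.77 (0.41, limma adjusted p = 0.151). The summed level of 221 to 240 in Prkci cKO did not overlap that of 190 to 203 in Prkcz cKO, and controls at 193 to 226 overlapped both.

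Ribosomal protein genes leaned the other way from Rpl22: 73 of 79 differences were positive, with a median of 0.11. Rps21 had a difference of 0.45 (54.7 to 77.5 against 38.0 to 52.9, limma adjusted p = 0.201). The sum was 10848 in Prkci cKO replicate 1 and 8451 to 9085 in the other Prkci cKO libraries, against 8218 to 9152 in Prkcz cKO, so replicate 1 alone stood above Prkcz cKO. The median was between 0.03 and 0.16 over the analyses that each left out 1 library. Of 75 nuclear oxidative phosphorylation genes, 59 had negative differences, with a median of -0.05 and 0 calls.

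Heat shock, endoplasmic reticulum chaperone, glucocorticoid and cell cycle genes gave 0 calls among 19, 20, 18 and 22 tested members. Their medians lay between -0.05 and 0.05. Hippo and YAP genes gave 0 calls among 25 with a median of 0.12, which was 0.06 without Prkcz cKO replicate 3. Of that list, Wwtr1, the co-activator TAZ, was 18.2 to 21.1 against 13.3 to 16.9 (log2 difference 0.37, limma adjusted p = 0.138). Choroid plexus and ependymal genes gave 0 calls among 20, with a median of -0.19 and Ttr at 385 to 614 against 539 to 877. A difference that missed the threshold does not show that the groups are alike.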

How the data were processed

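Bulk RNA sequencing of cortex gave 1 library per sample. The authors deposited a normalised signal per gene and library, with 2 decimals and columns summing to 1021770 to 1082560; per the submitters' processing notes, FastQC, Trim Galore, STAR, RSEM and edgeR were used on GRCm38. Not given in the sources used here: versions, annotation, strand and scaling. Of low values, 86.3% to 89.8% lay at whole steps, so whole reads were not recovered and no count test was run.

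Values were taken as log2(value + 0.5), which understates changes of low genes. The 7 knockout libraries were fitted with limma 3.58.1 in R 4.3.3 (lmFit, then eBayes with its trend option; residual degrees of freedom, 5), two-sided, with Benjamini-Hochberg adjustment over 14330 genes and a threshold of 0.05. P-values set each difference against the spread between these samples within groups, with the variance of each gene adjusted by eBayes toward a trend over all genes. The comparison, the 38 lists and the members were chosen with earlier results of these data known. Named genes were Prkci and Prkcz, the 12 largest called differences in each direction, taken among genes whose groups did not overlap and whose mean log2 value reached 2, the 4 members of smallest p in each list, and all genes beside Cspg4; unnamed models were counted, not described. Of 16228 symbols, 15555 were placed on GRCm38 through GENCODE M21 and RefSeq synonyms, and 673 were not. Windows within 5 Mb and 20 Mb were counted by gene start. Promoter bases came from RefSeq, GRCm38.p6. The fit was tested on simulated data. Alternatives covered pseudocount, filter, scaling, variance model, weights, fitted libraries, a replicate block and each library left out.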

Additional observations from a re-analysis of the deposited data

Results flagged for a closer look

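In 7 of 166 named genes, 1 of the 4 Prkci cKO libraries lay far from the other 3 by Dixon's criterion at 95% on the log2 scale; chance gives about 1 in 20. Eln in replicate 4 was 20.9, against 13.9 to 14.8 in the other 3 and 8.42 to 9.22 in Prkcz cKO, and it was the called gene among the 7. Notch3, the Notch receptor of mural cells, was 15.2 in replicate 4 and 12.9 to 13.2 in the others. In replicate 3, Coro1a, an actin regulator of leukocytes, was 90.6 (others 86.1 to 86.2), Ptprc, the leukocyte antigen CD45, was 4.22 (others 3.02 to 3.12) and Slc17a6, the subcortical glutamate transporter gene, was 40.3 (others 32.6 to 33.2). Pdk4, a glucocorticoid target, was 7.96 in replicate 3 and 10.3 to 10.6 in the others. Cry1 was 20.6 in replicate 2 and 21.3 in the other 3, a gap of little size that stands out because the 3 lie so close.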

How the results depend on the processing

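The number of genes called was within 1.5 times of 55 under other scalings, pseudocounts, filters, robust variances, the all-library fit and the block. It was 97 with array weights and 31 with no variance trend, and it lay between 18 and 83 when 1 library was left out. The causes of these changes were not tested. With all 11 libraries in one fit, 79.1% of calls were in the higher direction, against 69.1%. No named gene past the threshold changed direction in any alternative.

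The log2 difference of Prkci was -0.36 with no variance trend (limma adjusted p = 0.0719), and -0.39 to -0.31 when 1 library was left out, with the call kept in 3 of those 7 analyses and in 13 of all 19 alternatives. Among genes beside Cspg4, none of which was called, Cspg4 lay between -0.023 and 0.17, Fbxo22 between -0.029 and 0.054 and Snupn between -0.065 and 0.066 when 1 library was left out. Fbxo22 was -0.0032 with Rn45s left out and -0.0031 with array weights, and Snupn was 0.049 with array weights and 0.0055 with quantile normalization. The endothelial median was 0.41 with array weights, 0.43 with a pseudocount of 1 and 0.41 to 0.56 with 1 library left out. The blood-brain barrier median was 0.30 with array weights, 0.23 with a filter of 5, 0.24 with quantile normalization and 0.24 to 0.30 with 1 library left out. Leaving out 1 library gave medians of -0.033 to 0.018 for interneuron genes, -0.067 to -0.010 for glucocorticoid genes, 0.22 to 0.33 for interferon genes and -0.034 to 0.012 for polarity genes.

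Samples with the same replicate number shared deviations only weakly (correlations of 0.0468, 0.135 and 0.154), although each of these samples correlated best with its own number. These values cannot settle whether the numbers pair the samples, and the main fit took the samples as unpaired. With the number as a replicate block, which left 2 residual degrees of freedom, 43 genes were called, 29 of them among the 55. Under the block Prkci was -0.36 (limma adjusted p = 0.0787), Snupn 0.011, the interneuron median -0.018 and the glucocorticoid median -0.067.

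Depth limits low genes such as Slc2a5.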
